A study of Rattus norvegicus with 30 samples.

Results

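The solute carrier genes are the genes whose symbol starts with Slc and a family number. Of 185 such names in the deposited tables, 87 reached 1 CPM (reads of a gene, scaled to the same total in every library) or more in 3 or more of 30 samples, and these 87 are described here, out of 4363 genes that passed the same filter. They belonged to 37 of the 45 families named, with the most in family 25, the mitochondrial carriers (12 of 22), and in family 35, the nucleotide sugar transporters (10 of 15). Levels of RNA chose the members, so the presence of a gene among the 87 is no finding. Of the members, 38 reached 1 CPM in all 30 samples and 49 did not. At the edge of the filter, 10 members had exactly 3 samples at 1 CPM, with a third-highest value of 1.03 CPM for Slc30a3 and Slc9a3 and 12.1 CPM for Slc13a5, and 12 names stopped at 2 samples, with third-highest values from 0.534 CPM for Slc5a10 to 0.95 CPM for Slc52a2. In 76 of the 98 names left out, no sample reached 1 CPM. Slc13a5, Slc30a3, Slc34a2, Slc36a2 and Slc5a7 passed through the samples of a single group, so that their difference from other groups follows from the filter. They took part in the fit and are counted where calls are counted, the counts without them are given as well, and no p is given for them. Slc9a3r1 and Slc9a3r2 carry older names of scaffold proteins that bind carriers and are no carriers themselves, and Slc3a1 codes for a heavy chain that brings a carrier to the membrane.

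Solute carriers are membrane proteins that move small molecules and ions across the plasma membrane or the membranes of organelles, without the use of ATP. Some let a solute run down its gradient, while others couple its transport to sodium, protons or an exchanged solute. In cells of the bone marrow stroma they bring in glucose, amino acids, phosphate and choline, pass lactate in and out, and supply mitochondria and the Golgi with nucleotides and sugars used for energy and for matrix.

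The cells were bone marrow mesenchymal stem cells (BMSCs) from 3 female Sprague Dawley rats 3 weeks old, used at passage 2, and each sample pooled 3 cultures. Undifferentiated BMSCs (0 h) were compared with BMSCs in osteogenic (OS), adipogenic (AD) or chondrogenic (CH) differentiation medium for 3, 12 and 72 h, which gave 10 groups of 3 samples. All groups share strain, tissue and cell type, no gene was altered, and no uninduced cells of the later times were used here, so that time in culture and medium cannot be told apart. All 9 comparisons with 0 h share the same 3 samples of 0 h. The samples of a group are labelled as biological replicates, but nothing in the sources used here ties a sample to 1 rat, so p-values measure the spread between these pooled samples.

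Read totals ran from 3899609 to 9046719, lowest at 72 h of CH, and 3 reads, taken as the floor, stood for 0.332 to 0.769 CPM, which covers counting error only. The genes listed held 38.9% to 71.4% of these totals, to which CPM is scaled, with 53.7% to 54.2% at 0 h, 38.9% to 49% at 72 h of AD and 68.7% to 71.4% at 12 h of OS, and the part of this difference in the balance of higher and lower genes was not tested. Replicates of a group correlated at 0.971 to 0.994 across genes, which are no independent replicates. Replicate 3 of AD at 72 h, replicate 3 of OS at 3 h and replicate 1 of AD at 12 h stood apart, with 425, 366 and 299 genes more than 1 log2 unit from the mean of the other replicates, among them 12, 8 and 11 solute carrier genes. Of 5 BMSC markers listed, Thy1, Cd44 and Itgb1 carried the signal (summed level 16084 to 16891 CPM at 0 h), Eng was near 0 and Vcam1 was at 0 in most groups. Their sum was 4110 to 4778 CPM at 72 h of AD and 9106 to 9584 CPM at 72 h of CH. The 3 haematopoietic markers summed to at most 0.86 CPM in a sample, the endothelial marker to at most 0.603 CPM and the erythroid marker to at most 0.177 CPM. Of the lineage markers, the sum of 4 adipocyte markers, nearly all of it Lpl, was 1163 to 3221 CPM at 72 h of AD but also 1041 to 1146 CPM at 72 h of OS, against 664 to 778 CPM at 0 h. The sum of 5 chondrocyte markers, nearly all of it Sox9, was 1171 to 1515 CPM at 72 h of CH, with Acan and Col2a1 at or near 0. The 4 osteoblast markers summed to 2.71 to 4.84 CPM at 72 h of OS, with Sp7 and Alpl at or near 0 there, and to 201 to 318 CPM at 72 h of CH, where Ibsp made up nearly all of it. These bulk samples cannot tell fewer cells of a type from less RNA per cell, and the part of cell mixture in the results below was not tested.

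The largest early rise was that of Slc7a5, the light chain of the LAT1 transporter, which takes up leucine and other large neutral amino acids. Its level was 125, 120 and 130 CPM in the 3 samples of 0 h and 1323, 1290 and 2101 CPM at 3 h of OS. At 3 h of AD the samples lay at 1115, 1126 and 1154 CPM, and at 3 h of CH at 1123, 1162 and 1101 CPM. Every 3 h sample was above every sample of 0 h, and the highest value belonged to replicate 3 of OS, which stood apart. The mean was 12.6-fold higher in OS, 9.05-fold in AD and 9.02-fold in CH (log2 fold changes 3.60, 3.17 and 3.16, SE 0.17, limma adjusted p = 8.8e-17, 1.79e-15 and 2.12e-15, n = 3 per group). The lineages then parted. At 12 h the means were 362 ± 28.5 CPM in OS, 107 ± 41.7 in AD and 425 ± 34.6 in CH (SD, n = 3), and both OS (log2 fold change 1.81, adjusted p = 5.47e-10) and CH (2.04, adjusted p = 3.29e-11) were above AD. At 72 h the gene was back near its starting level in OS (151 ± 6.9 CPM) and AD (105 ± 12.2 CPM), which were not called against 0 h, while CH held 632, 676 and 641 CPM. CH was above AD by a log2 fold change of 2.62 (adjusted p = 4.4e-14) and OS was below CH by -2.10 (adjusted p = 8.59e-12). The call at 12 h of OS (1.52, adjusted p = 5.83e-09) fell just under the size of 1 after quantile normalization.

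The second gene that rose at 3 h in all lineages was Slc25a5, which codes for the adenine nucleotide translocase ANT2 and exchanges ADP for ATP across the inner mitochondrial membrane. It is described with the other mitochondrial carriers. The promoters of both genes are shown because these 2 members moved together at 3 h in all 3 lineages, each as the 300 bases from 250 before the transcript start to 50 after it, from RefSeq on assembly GRCr8. Capitals mark the E-box CACGTG, which reads the same on both strands. The promoter of Slc7a5 lies at chr19:66872363-66872662 on the minus strand and holds an E-box at bases 72 to 77, and that of Slc25a5 lies at chrX:120897366-120897665 on the plus strand and holds none.

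Slc7a5: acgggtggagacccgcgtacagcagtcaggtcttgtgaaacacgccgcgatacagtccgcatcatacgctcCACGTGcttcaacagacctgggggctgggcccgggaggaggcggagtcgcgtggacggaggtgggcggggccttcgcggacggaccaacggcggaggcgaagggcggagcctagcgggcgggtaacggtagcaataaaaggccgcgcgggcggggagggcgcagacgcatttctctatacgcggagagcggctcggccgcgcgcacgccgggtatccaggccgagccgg

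Slc25a5: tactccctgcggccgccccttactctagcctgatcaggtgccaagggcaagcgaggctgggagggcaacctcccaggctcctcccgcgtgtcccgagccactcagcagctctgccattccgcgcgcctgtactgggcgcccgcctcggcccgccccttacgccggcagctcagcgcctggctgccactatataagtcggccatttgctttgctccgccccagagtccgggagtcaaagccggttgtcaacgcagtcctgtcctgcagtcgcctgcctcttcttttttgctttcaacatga

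Promoters of 300 bases were found for 72 of the 87 members. The E-box CACGTG stood in 15 of them (20.8%), against 6.42% of all 33469 promoters of that length and 8.98% of the promoters of 3206 genes that passed the filter. The motif TGATGCA, the core of the amino acid response element, stood in 2 of the 72 on either strand (2.78%), those of Slc1a4 and Slc25a42, against 2.28% of the promoters of genes that passed. TGACGTC, most of the cAMP response element, stood in 6 (8.33% against 4.93%), the GC box GGGCGG in 51 (70.8% against 64.2%), CCAAT in 22 (30.6% against 37.6%) and TATAAA in 5 (6.94% against 8.45%), each counted on both strands. Of the 15 genes with an E-box, 11 were called in at least 1 comparison with 0 h (Slc7a5, Slc16a1, Slc1a4, Slc12a7, Slc29a2, Slc30a3, Slc31a2, Slc35a5, Slc38a7, Slc5a1 and Slc9a5) and 4 in none (Slc30a5, Slc47a2, Slc5a6 and Slc9a3), beside 47 and 25 of the 72. A match describes these letters and is no binding site.

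A gene was called where its log2 fold change was 1 or more in size and its limma p, adjusted over all 4363 genes, was under 0.05. In OS the calls against 0 h were 13 of the 87 members at 3 h (14.9%, 9 of them higher), beside 18.4% of all genes tested (11.7% higher, 6.67% lower). After 12 h they were 14 (16.1%, 11 of them higher), beside 21.8% of all genes (14.7% higher, 7.15% lower), and after 72 h 15 (17.2%, 9 of them higher), beside 12.5% (7.2% higher, 5.29% lower). In AD there were 17 calls at 3 h (19.5%, 10 of them higher), beside 18.8% of all genes (12.4% higher, 6.42% lower), 13 after 12 h (14.9%, 5 of them higher), beside 13.7% (8.14% higher, 5.55% lower), and 17 after 72 h (19.5%, 10 of them higher), beside 15.3% (6.19% higher, 9.08% lower). In CH there were 15 calls at 3 h (17.2%, 9 of them higher), beside 18% of all genes (13.1% higher, 4.88% lower), 15 after 12 h (17.2%, 10 of them higher), beside 14.4% (9.44% higher, 5% lower), and 23 after 72 h (26.4%, 18 of them higher), beside 18% (11.6% higher, 6.37% lower). The shares of members lay near those of all genes in most comparisons, and the widest gap was that at 72 h of CH. Without the 5 members that passed through 1 group, 20 of 82 were called there (15 higher and 5 lower, 24.4%), against 17.4% of the 4262 genes that reached 1 CPM in samples of more than 1 group, and 14 of 82 (17.1%) at both 3 and 12 h of CH, against 18.2% and 14.7% of those genes. In all 9 comparisons the 3 samples of every called member lay on 1 side of the samples of 0 h. The same was not counted over all called genes, so it is not given as a trait of the members. The median log2 fold change over the members ran from 0.00 at 72 h of AD to 0.39 at 3 h of CH, beside medians over all genes from -0.05 to 0.21 in these 2 comparisons. Without the libraries that stood apart, the counts were 12 at 3 h of OS, 16 at 12 h of AD and 17 at 72 h of AD. The shares of all genes in those fits were not counted.

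**Figure D1:**
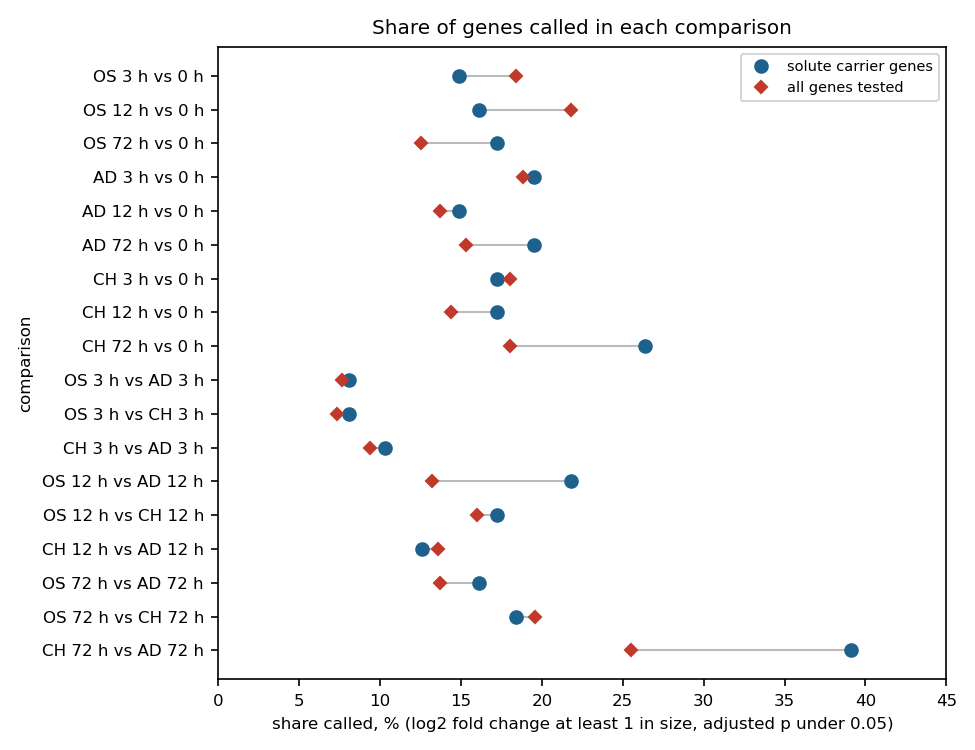
Share of the 87 solute carrier genes (circles) and of all 4363 genes tested (diamonds) that were called, in percent, in the 9 comparisons with 0 h and the 9 comparisons between lineages. The circle lies farthest to the right of the diamond in CH against AD at 72 h (39.1% and 25.5%) and in OS against AD at 12 h (21.8% and 13.2%).

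The balance of higher and lower members depended on how samples were scaled. Median-ratio scaling gave 7 higher and 5 lower members at 3 h of OS, 6 and 8 at 12 h of OS, 6 and 7 at 3 h of AD, 3 and 10 at 12 h of AD, 6 and 9 at 3 h of CH and 8 and 9 at 12 h of CH. Quantile normalization gave 8 and 7 at 12 h of OS, 6 and 7 at 3 h of AD, 7 and 11 at 3 h of CH, 8 and 9 at 12 h of CH and 14 and 7 at 72 h of CH. The edgeR test on the recovered reads gave 9 and 12 at 12 h of OS, 9 and 11 at 3 h of CH and 9 and 13 at 12 h of CH. The median-ratio scaling moved the median log2 fold change of all genes from 0.21 to 0.00 at 3 h of CH, from 0.15 to 0.00 at 3 and 12 h of AD from 0.09 to -0.07 at 12 h of OS and from 0.16 to -0.05 for OS against AD at 72 h. No called value of a member changed its sign under any of the alternatives.

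Over the 9 comparisons, 56 of the 87 members were called at least once, beside 53.2% of all genes, and 31 never. Of the 56, 39 were called only as higher than 0 h, 13 only as lower, and 4 (Slc1a1, Slc1a4, Slc25a13 and Slc44a1) as higher in some groups and lower in others, beside 33%, 13.5% and 6.69% of all genes. The 5 members that passed through 1 group are among the 39, and without them 51 of 82 were called, 34 of them only as higher, beside 52.2% and 31.6% of the genes that reached 1 CPM in more than 1 group. Among the 35 members with a mean of at least 10 CPM over all samples, 24 were called at least once and 11 never, beside 56.2% called at least once of the 1810 genes with such a mean.

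**Figure D2:**
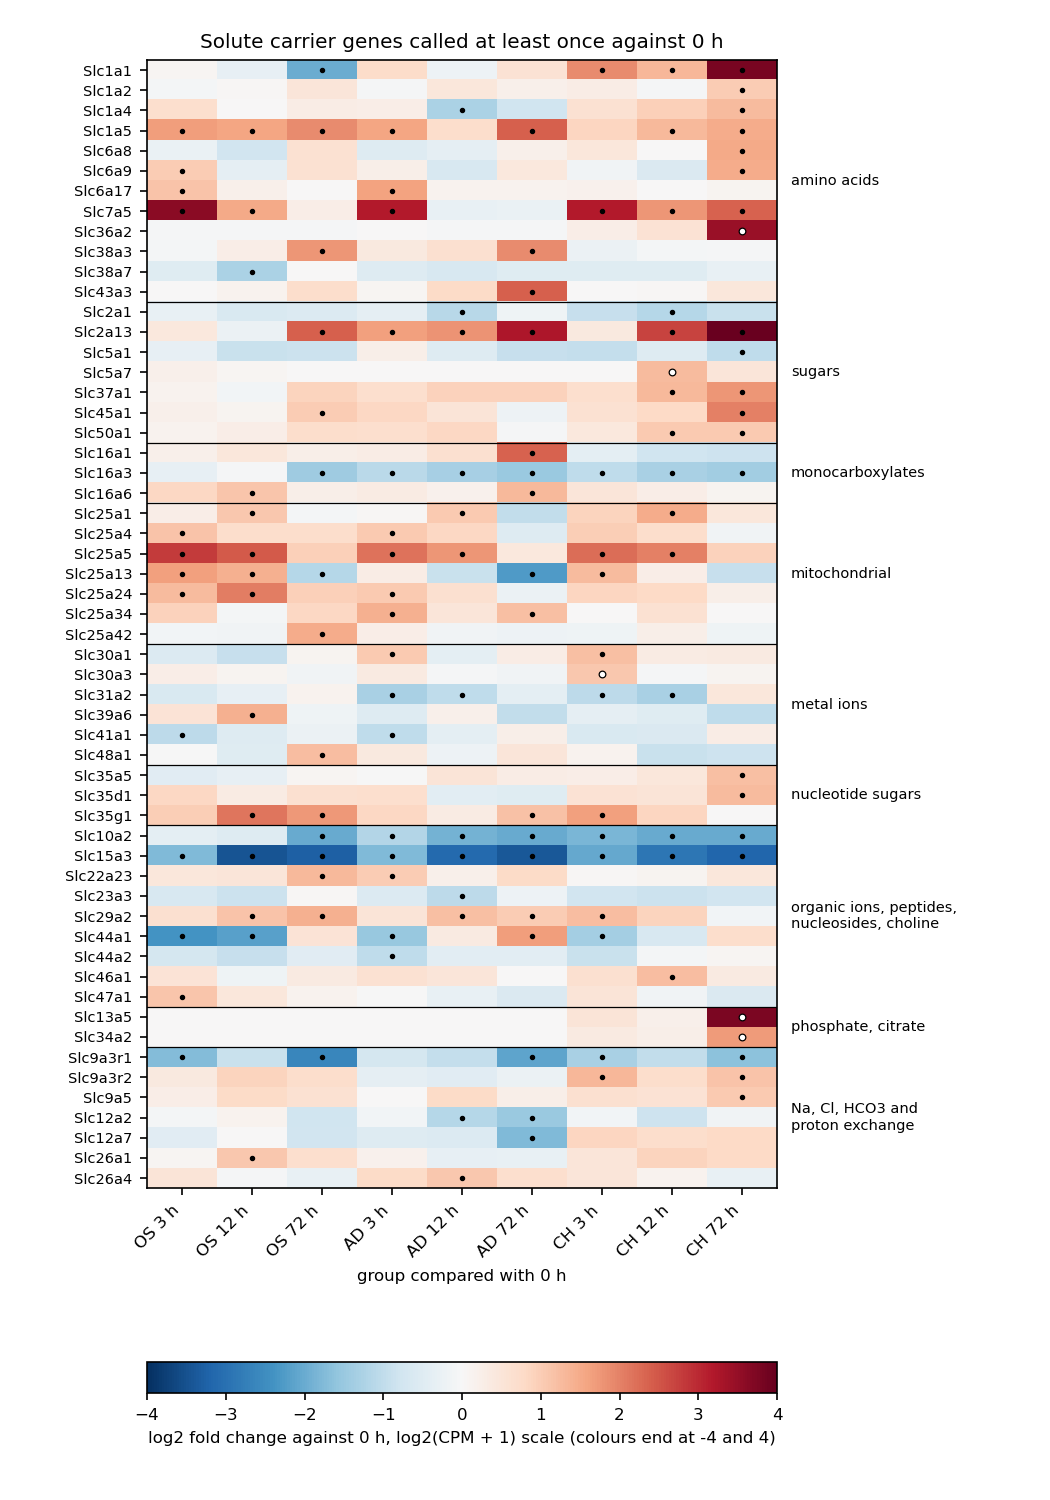
Log2 fold change against 0 h of the 56 solute carrier genes called at least once, in rows grouped by what they carry, for 9 groups in columns (OS, osteogenic; AD, adipogenic; CH, chondrogenic). Red is higher and blue lower than at 0 h, and a dot marks a call, open for the 5 members that passed through 1 group alone. Slc15a3 is blue with a dot in all 9 columns, Slc7a5 and Slc25a5 are red with a dot in all 3 lineages at 3 h, and the column of 72 h of CH holds 8 dots among the amino acid transporters, all of them in red cells and 1 of them open.

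Of the 15 amino acid transporter genes, 8 were called as higher at 72 h of CH and none as lower, beside 11.6% and 6.37% of all genes. In the other 8 comparisons with 0 h, between 0 and 4 of them were called as higher and at most 1 as lower, beside 6.19% to 14.7% of all genes higher and 4.88% to 9.08% lower. With median-ratio scaling, quantile normalization or edgeR, 8, 7 and 9 of the 15 were called as higher at 72 h of CH, and in the other comparisons up to 5 as higher (72 h of AD, with median-ratio scaling and edgeR) and up to 3 as lower (12 h of OS, with edgeR). Slc36a2 is 1 of the 8 and passed through these samples alone. Without it 7 of 14 were called as higher, beside 10.9% of the genes that reached 1 CPM in more than 1 group, and the median log2 fold change over the 14 was 0.74, beside 0.00 over those genes. The call of Slc1a2 was lost without replicate 1 or 2 of 0 h, without replicate 1 of CH at 72 h, and after quantile normalization. This gene reached 1 CPM only in samples of 12 h of AD and 72 h of CH. The family groups are broader than their name, since Slc6a8 carries creatine and Slc43a3 purine nucleobases.

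Slc1a1, which codes for the glutamate and aspartate transporter EAAT3, separated the lineages most. Its level was 7.45, 6.13 and 6.07 CPM at 0 h, and rose in CH to 25.9, 30.1 and 25 CPM at 3 h and to 104, 104 and 102 CPM at 72 h. In OS the 72 h samples held 0.448, 1.25 and 1.05 CPM, from 3 to 8 reads. All 72 h samples of CH were thus above, and all of OS below, every sample of 0 h. The log2 fold changes against 0 h were 1.89, 1.33 and 3.80 at 3, 12 and 72 h of CH (SE 0.36, adjusted p = 6.38e-05, 0.00365 and 3.79e-10), and at 72 h of OS the mean was 7.14-fold lower (adjusted p = 5.22e-05). Between OS and CH at 72 h the log2 fold change was -5.79 (SE 0.36, adjusted p = 3.29e-14), a difference in means of 113-fold. AD at 72 h held 17.3, 16.7 and 3.48 CPM, of which the last is the replicate that stood apart. CH was above AD by a log2 fold change of 3.21, or 2.54 without that replicate, and OS was below AD by -2.59, or -3.25 without it.

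Both neutral amino acid exchangers of family 1 were measured. Slc1a5, which codes for ASCT2 and exchanges glutamine, was at 65.7, 63.1 and 79.5 CPM at 0 h and at 225, 222 and 221 CPM at 3 h of OS. It was called at all 3 times of OS, with means 3.2-, 3- and 3.76-fold above 0 h (log2 fold changes 1.67, 1.58 and 1.90, SE 0.17, adjusted p = 1.91e-09, 4.47e-09 and 2.22e-10), and at 72 h in all 3 lineages. At 72 h of AD the samples lay at 277, 306 and 565 CPM (log2 fold change 2.38, adjusted p = 1.34e-12), with the highest in the replicate that stood apart, and at 72 h of CH at 217, 183 and 181 CPM (1.47, adjusted p = 2.51e-08). All of these samples were above the highest sample of 0 h. Slc1a4, which codes for ASCT1 and carries serine, alanine and cysteine, was called as lower at 12 h of AD and as higher at 72 h of CH, and in no other group. It was at 681, 697 and 674 CPM at 0 h, at 496, 217 and 213 CPM at 12 h of AD (log2 fold change -1.27, adjusted p = 1.13e-06) and at 1731, 1644 and 1562 CPM at 72 h of CH (1.26, adjusted p = 8.53e-07). The highest of these AD samples was replicate 1, which stood apart. Between CH and AD the log2 fold change of Slc1a4 was 2.21 at 12 h (adjusted p = 2.56e-11) and 2.07 at 72 h (adjusted p = 3.65e-11).

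**Figure D3:**
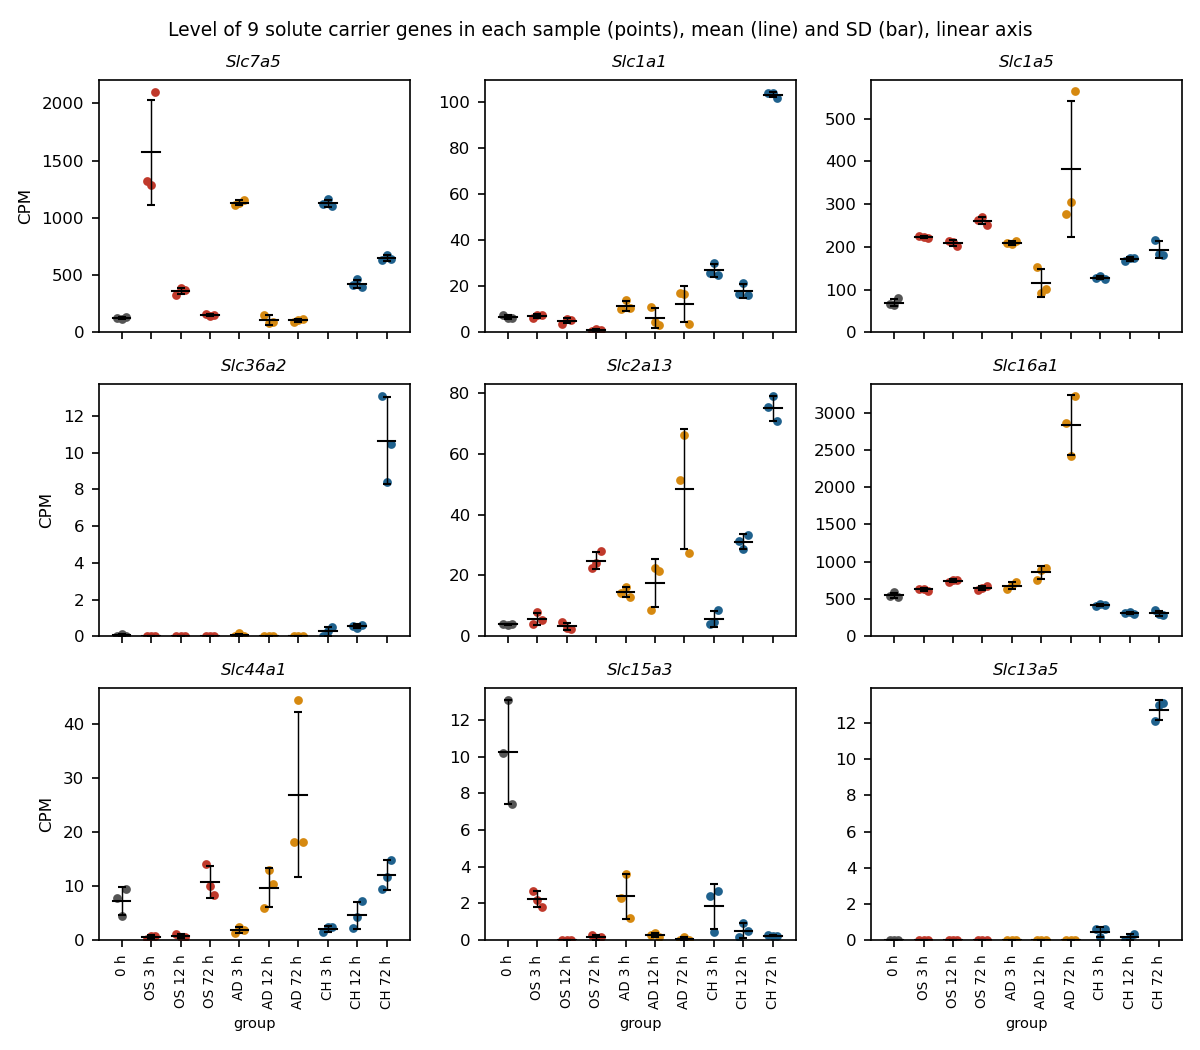
Level in CPM of 9 solute carrier genes in each of the 30 samples (points), with the mean (line) and SD (bar) of each group of 3, on linear axes that start at 0. Slc7a5 is high in all lineages at 3 h and again at 72 h of CH, Slc1a1 and Slc2a13 are highest at 72 h of CH, Slc16a1 stands out at 72 h of AD, Slc44a1 dips at 3 h, and Slc15a3 falls in all groups.

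Several other amino acid transporters were higher at 72 h of CH. Slc6a9, the glycine transporter GlyT1, was at 33.1, 25 and 27.4 CPM there against 7.73, 9.19 and 11.7 CPM at 0 h, a log2 fold change of 1.49 (with SE 0.20, adjusted p = 4.47e-07). The creatine transporter Slc6a8 was at 80, 75.6 and 68 CPM against 25.5, 24.7 and 25.8 CPM (1.52, SE 0.18, adjusted p = 3.02e-08). In both genes the CH samples lay above all samples of 0 h. Slc38a3, which codes for SNAT3 and moves glutamine, was higher at 72 h of OS and AD instead. It had 3.43, 3.43 and 2.11 CPM in OS and 3.2, 3.19 and 3.64 CPM in AD at 72 h, against 0.573, 0 and 0 CPM at 0 h and 0, 0.442 and 0 CPM at 72 h of CH. The log2 fold changes against 0 h were 1.76 (SE 0.28, adjusted p = 1.24e-05) and 1.90 (adjusted p = 2.88e-06), and OS was at least 3.89-fold above CH at 72 h. Slc43a3, which carries purine nucleobases, had no reads at 0 h and 4.99, 3.72 and 4.12 CPM at 72 h of AD, at least 9.4-fold higher (fitted log2 fold change 2.39, adjusted p = 1.28e-08). It was lower at 72 h of OS (log2 fold change -1.68, adjusted p = 7.45e-06) than of AD, and CH was below AD by -1.94 (adjusted p = 3.38e-07).

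Slc6a17, a vesicular transporter of neutral amino acids, had no reads at 0 h and appeared at 3 h of AD with 1.22, 2.2 and 3.12 CPM, from 11 to 21 reads, at least 4.79-fold higher (fitted log2 fold change 1.62). At 3 h of OS it was at 0.157, 2.21 and 1.8 CPM, and that call (1.13) was lost by its size without replicate 2 or replicate 3 of OS. By 12 h of AD it had fallen again (log2 fold change -1.47). Slc6a17 reached 1 CPM only in samples of 3 h of AD and OS. Its differences thus follow in large part from the filter, and no p is given. The lysosomal glutamine carrier gene Slc38a7 was lower at 12 h of OS, at 2.26, 2.69 and 1.37 CPM against 6.3, 5.99 and 6.82 CPM (-1.27, adjusted p = 0.000514). Slc38a2, which codes for the stress-responsive transporter SNAT2, was not called against 0 h in any group, with log2 fold changes of 0.81 at 72 h of AD (adjusted p = 0.0564) and -0.85 at 3 h of CH (adjusted p = 0.0388). Median-ratio scaling, quantile normalization and edgeR each called it as higher at 72 h of AD and lower at 3 h of CH, the first and last also as lower at 3 h of OS, and edgeR also as lower at 12 h of OS and CH. Its level was 14.5, 15.5 and 14.3 CPM at 0 h, and its spread was wide in the libraries that stood apart, with 53.5 CPM in replicate 3 of AD at 72 h beside 21.7 and 16 CPM.

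Among 9 genes of the sugar transporter families, 4 were called as higher and 1 as lower at 72 h of CH, beside 11.6% and 6.37% of all genes. The numbers were the same at 12 h of CH, beside 9.44% and 5%, but 1 of the 4 was Slc5a7, which passed through those samples alone and carries choline. With either other scaling and with edgeR 3 were higher at 12 h of CH, since Slc50a1 fell from 1.06 to 0.82 with median-ratio scaling, 0.72 with quantile normalization and 0.81 with edgeR. Slc2a13, the proton-coupled myo-inositol transporter HMIT, had the largest rise of the 9. It was at 4.01, 3.76 and 4.09 CPM at 0 h and reached 22.4, 24.2 and 27.9 CPM in OS, 51.3, 66.3 and 27.2 CPM in AD and 75.4, 78.9 and 70.7 CPM in CH at 72 h. The means were 6.27-, 12.2- and 19-fold above 0 h (log2 fold changes 2.38, 3.23 and 3.94, SE 0.30, adjusted p = 2.58e-07, 4.72e-10 and 4.78e-12). Its timing differed between the lineages. At 3 h it had already risen in AD, at 14.3, 16.2 and 12.9 CPM, and both OS (log2 fold change -1.23, adjusted p = 0.00386) and CH (-1.25, adjusted p = 0.0026) were below AD. At 12 h CH stood at 31.2, 28.7 and 33.4 CPM and OS at 4.67, 2.69 and 2.44 CPM (OS against CH -2.95, adjusted p = 3.27e-09). At 72 h OS was still below CH (-1.56, adjusted p = 9.71e-05), whereas the difference between CH and AD did not pass (0.71, adjusted p = 0.0506).

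The facilitative glucose transporter genes of the same family were low or left out. Slc2a1, the gene of GLUT1, was at 2.44, 1.67 and 1.36 CPM at 0 h and at 0.146, 0.368 and 0.37 CPM at 12 h of AD, at least 3.29-fold lower (fitted log2 fold change -1.11, adjusted p = 0.00426), and at 0.578, 0.312 and 0 CPM at 12 h of CH (-1.13, adjusted p = 0.00348). Both calls were lost by their size without replicate 1 of 0 h, and that in CH also without replicate 3 of CH. Slc2a4, the gene of the insulin-responsive GLUT4, had no reads at 0 h and at most 1.47 CPM in any sample, and was called in no comparison with 0 h, but with edgeR and with a pseudocount of 0.1 it was called as higher at 12 h of AD and 72 h of OS. It reached 1 CPM in samples of those 2 groups alone, so these calls follow in large part from the filter. Slc45a1, a proton-coupled sugar transporter, rose to 7.18, 6.19 and 5.78 CPM at 72 h of CH from 1, 0.557 and 0.91 CPM (log2 fold change 2.02, SE 0.25, adjusted p = 9.41e-08). CH was above AD in Slc45a1 by 2.24 at 72 h (adjusted p = 9.22e-09). Slc37a1, a glucose-6-phosphate transporter, was at 5.13, 6.85 and 4.67 CPM at 72 h of CH against 0.716, 1.53 and 0.607 CPM (1.76, SE 0.37, adjusted p = 0.000245). Slc50a1, a sugar transporter of the Golgi and plasma membrane, was at 180, 149 and 148 CPM at 72 h of CH against 79.6, 73.3 and 74.2 CPM, a log2 fold change of 1.06 (with SE 0.10, adjusted p = 1.03e-09) that fell under 1 without replicate 1 of CH and with quantile normalization or edgeR. Slc5a7, placed here by its family number, had 1.42 ± 0.147 CPM at 12 h of CH and at most 0.443 CPM as the mean of any other group.

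The lactate and pyruvate transporters gave the clearest gene of AD. Slc16a1, which codes for MCT1, was at 538, 588 and 521 CPM at 0 h and at 2856, 2412 and 3223 CPM at 72 h of AD, 5.16-fold higher in mean (log2 fold change 2.36, SE 0.10, adjusted p = 8.2e-18). All AD samples of 72 h were above every other sample of the series. The gene rose between 12 and 72 h of AD, by a log2 fold change of 1.72 (adjusted p = 1.32e-14), and was not called against 0 h in OS or CH. At 12 h of CH its log2 fold change of -0.81 (adjusted p = 1.38e-07) was under the size of 1, and it was called as lower with median-ratio scaling (-1.05), quantile normalization (-1.14) and edgeR (-1.08). At 72 h it was lower in OS (616, 646 and 670 CPM) and lower still in CH (348, 294 and 288 CPM). OS was below AD by -2.13 (adjusted p = 4.38e-16), CH below AD by -3.18 (adjusted p = 2.84e-21), and OS above CH by 1.05 (adjusted p = 5.94e-10), of which the last fell to 0.93 with median-ratio scaling and 0.98 with edgeR. The BMSC marker sum was lowest and the adipocyte marker sum highest in these AD samples, as given above, and their part in this result was not tested. The promoter of Slc16a1 is shown for this rise, at chr2:194812410-194812709 on the plus strand of GRCr8, with an E-box in capitals at bases 35 to 40.

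Slc16a1: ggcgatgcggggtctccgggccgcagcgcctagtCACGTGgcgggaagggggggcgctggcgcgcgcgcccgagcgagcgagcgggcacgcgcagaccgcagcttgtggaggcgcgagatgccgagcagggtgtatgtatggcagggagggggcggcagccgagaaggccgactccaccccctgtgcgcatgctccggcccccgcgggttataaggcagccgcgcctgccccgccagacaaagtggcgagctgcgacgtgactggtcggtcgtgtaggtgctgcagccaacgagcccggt

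Slc16a3, which codes for the lactate exporter MCT4, was low and was lost. It was at 2.44, 1.25 and 1.82 CPM at 0 h (9 to 17 reads) and had no reads at 72 h of AD, at most 1 read in each sample of OS and at most 1 read in each sample of CH at 72 h. The level was at least 3.92-fold lower in OS, 3.44-fold in AD and 2.39-fold in CH at that time (fitted log2 fold changes -1.42, -1.48 and -1.39, adjusted p = 1.1e-05, 4.08e-06 and 9.27e-06). The losses in AD and CH were called from 3 h on, though at 3 h the call was lost by its size without replicate 1 of 0 h, without replicate 1 of AD in AD and without replicate 2 of CH in CH. In OS the gene was still at 1.81, 1.64 and 1.68 CPM at 12 h, at least 3.08-fold above AD and 3.6-fold above CH (fitted log2 fold changes 1.29 and 1.25, adjusted p = 3.99e-05 and 4.85e-05). Slc16a6, a transporter of ketone bodies, was at 0.712, 1.42 and 3.01 CPM at 72 h of AD, with the highest value in the replicate that stood apart, and its call there (1.29, adjusted p = 0.000532) was lost by its size without it, at 0.96.

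Of 12 mitochondrial carrier genes, 4 were called as higher at 3 h of OS, 4 at 12 h of OS, 4 at 3 h of AD, and 2 each at 12 h of AD, 3 h of CH and 12 h of CH, with none called as lower at these times. The shares of all genes called as higher were 11.7%, 14.7%, 12.4%, 8.14%, 13.1% and 9.44% in that order. With median-ratio scaling the numbers called as higher were 3, 3, 2, 1, 1 and 2, with quantile normalization 2, 3, 2, 1, 1 and 2, and with edgeR 3, 3, 2, 1, 1 and 2. All 3 settings also gave 1 lower at 12 h of AD, and edgeR 1 lower at 12 h of CH. At 72 h there was 1 higher and 1 lower in OS (7.2% and 5.29% of all genes), 1 higher and 1 lower in AD (6.19% and 9.08%) and none in CH (11.6% and 6.37%). Slc25a5 (ANT2) was at 33.9, 31.8 and 40.5 CPM at 0 h and at 188, 198 and 431 CPM at 3 h of OS, 184, 134 and 173 CPM at 3 h of AD and 171, 183 and 156 CPM at 3 h of CH. Every one of these samples was above the samples of 0 h, and the highest was replicate 3 of OS, which stood apart. The means were 7.69-, 4.63- and 4.81-fold higher (log2 fold changes 2.81, 2.17 and 2.24, SE 0.20, adjusted p = 1.15e-12, 2.82e-10 and 1.27e-10). It was still called at 12 h in all lineages and fell between 12 and 72 h, by log2 fold changes of -1.48 in OS, -1.37 in AD and -1.11 in CH (adjusted p = 2.72e-07, 1.41e-06 and 4.77e-05). The fall in AD was under 1 in size with both other scalings, and that in CH with these and with edgeR.

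Slc25a4, which codes for the sister translocase ANT1, was at 905, 910 and 893 CPM at 0 h and at 1833, 1863 and 2357 CPM at 3 h of OS (log2 fold change 1.15, SE 0.11, adjusted p = 7.65e-10), and AD at 3 h was at 1904, 1814 and 1888 CPM (1.05, adjusted p = 5.35e-09). Both log2 fold changes fell under 1 with median-ratio scaling, quantile normalization and edgeR. Slc25a24, a carrier of ATP-Mg and phosphate, peaked at 12 h of OS, with 784, 850 and 834 CPM against 195, 193 and 205 CPM at 0 h (2.05, SE 0.16, adjusted p = 9.26e-12). OS at 12 h was above AD by 1.40 (adjusted p = 6.03e-08) and above CH by 1.26 (adjusted p = 2.83e-07). Slc25a1, which exports citrate for lipid synthesis, was called at 12 h in all 3 lineages, at 334, 361 and 330 CPM in OS, 431, 301 and 290 CPM in AD and 465, 470 and 419 CPM in CH, against 176, 147 and 165 CPM. The log2 fold changes were 1.07, 1.04 and 1.47 (SE 0.17, adjusted p = 3.41e-06, 8.66e-06 and 2.52e-08). Those in OS and AD fell under 1 with each other scaling and with edgeR, and that in AD also without replicate 1 of AD, which stood apart and was the highest, or replicate 2 of 0 h.

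Slc25a13, the aspartate and glutamate carrier citrin of the malate-aspartate shuttle, changed direction with time. It was at 20.1, 18.4 and 20.3 CPM at 0 h and rose to 56.3, 56.9 and 79.7 CPM at 3 h of OS and to 50.9, 56.1 and 56.7 CPM at 12 h of OS (log2 fold changes 1.65 and 1.43, SE 0.21, adjusted p = 1.43e-07 and 1.3e-06). At 72 h it was below 0 h in OS, at 9.1, 7.33 and 8.89 CPM (-1.13, adjusted p = 9.27e-05), and in AD, at 4.63, 2.66 and 2.85 CPM (-2.26, adjusted p = 4.23e-10). The groups did not overlap with 0 h in any of these 4 comparisons. OS was above AD at all 3 times, with log2 fold changes of 1.34, 2.31 and 1.13 (adjusted p = 1.87e-05, 5.15e-10 and 7.33e-05), of which the last was 0.86 after median-ratio scaling. The rise at 3 h of CH (1.28, adjusted p = 8.83e-06) fell under 1 with both scalings and with edgeR. Slc25a42, which carries coenzyme A into mitochondria, was higher at 72 h of OS, with 9.25, 8.89 and 11.6 CPM against 4.01, 3.9 and 1.36 CPM at 0 h (1.49, SE 0.37, adjusted p = 0.00223), and OS was above AD (1.67, adjusted p = 0.000501) and CH (1.66, adjusted p = 0.000478).

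Slc25a34, another member of the family, was at 3.1, 3.15 and 2.23 CPM at 3 h of AD against 0.286, 0.696 and 0.303 CPM at 0 h (1.42, SE 0.31, adjusted p = 0.000464). CH was below AD in Slc25a34 at that time by -1.42 (adjusted p = 0.0011).

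**Figure D4:**
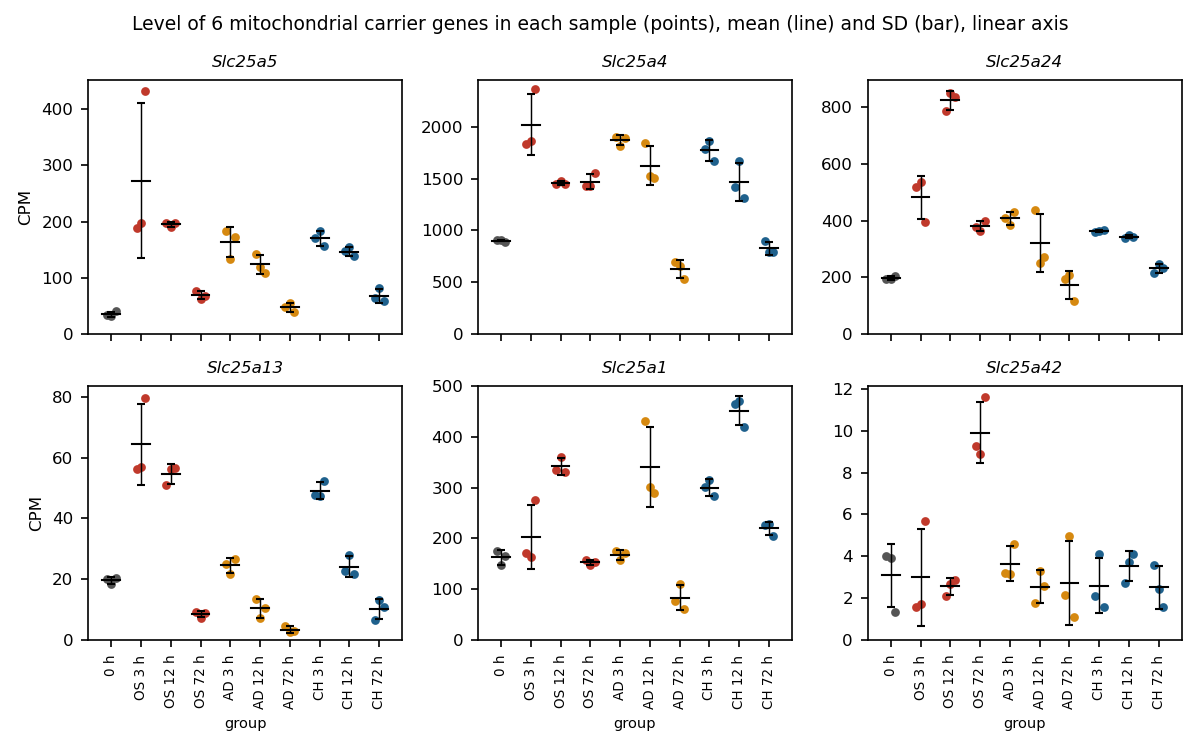
Level in CPM of 6 mitochondrial carrier genes in each sample (points), with the mean (line) and SD (bar) of each group of 3, on linear axes that start at 0. Slc25a5 is high at 3 and 12 h and lower again at 72 h in each lineage, Slc25a13 is high at 3 and 12 h of OS and 3 h of CH and below 0 h at 12 and 72 h of AD, Slc25a24 peaks at 12 h of OS, Slc25a1 is highest at 12 h in each lineage, and Slc25a42 is highest at 72 h of OS.

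Of 12 metal ion transporter genes, between 0 and 3 were called in each comparison with 0 h, beside 12.5% to 21.8% of all genes. Slc30a1, which exports zinc from the cell, separated OS from the other lineages at 3 h. It was at 212, 218 and 219 CPM at 0 h, at 447, 445 and 460 CPM at 3 h of AD, at 484, 489 and 526 CPM at 3 h of CH and at 141, 167 and 133 CPM at 3 h of OS. AD and CH lay above all samples of 0 h and OS below them. OS was below AD by a log2 fold change of -1.62 (with SE 0.10, adjusted p = 3.22e-13) and below CH by -1.76 (adjusted p = 3.96e-14). The rises against 0 h in AD (1.06, adjusted p = 7.83e-10) and CH (1.20, adjusted p = 4.47e-11) fell under 1 with both other scalings and with edgeR. Slc39a6, a zinc importer, was at 17.9, 25.4 and 20.7 CPM at 12 h of OS against 6.59, 8.08 and 7.28 CPM (1.42, SE 0.47, adjusted p = 0.0138), a call lost without replicate 2 of OS (adjusted p = 0.0536) and after either other scaling.

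Slc31a2, a copper transporter of intracellular membranes, was lower at 3 and 12 h of AD and CH, with means of 9.38 ± 1.9, 11.7 ± 2.3, 11.5 ± 2.44 and 9.47 ± 1.59 CPM in that order against 24.4 ± 1.22 CPM at 0 h (log2 fold changes -1.31, -1.01, -1.04 and -1.29). The calls at 12 h of AD and 3 h of CH were lost by their size when 1 library was left out (replicate 2 of 0 h or replicate 3 of AD, and replicate 3 of CH). Slc41a1, which carries magnesium, was lower at 3 h of OS and AD, at 147 ± 33.2 and 149 ± 1.77 CPM against 303 ± 11.4 CPM (-1.06 and -1.02, SE 0.11), and fell short of 1 in size without replicate 1 or 2 of OS and without replicate 3 of 0 h for AD. Slc48a1, a heme transporter, was at 711, 768 and 833 CPM at 72 h of OS against 323, 338 and 313 CPM (1.24, SE 0.11, adjusted p = 2.16e-10). Every OS sample of 72 h was above every sample of the other groups. OS was above CH by 2.09 at 72 h (adjusted p = 8.76e-16), and CH below AD by -1.32 (adjusted p = 2.13e-11). Slc30a3, a zinc transporter of vesicles, reached 1.36 ± 0.43 CPM at 3 h of CH and at most 0.401 CPM as the mean of another group.

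In the 10 nucleotide sugar transporter genes, at most 2 were called against 0 h in a group, both at 72 h of CH, beside 18% of all genes there. Slc35d1, which brings UDP-glucuronic acid and UDP-N-acetylgalactosamine, building blocks of chondroitin sulfate, into the endoplasmic reticulum, was at 83.3, 88 and 84.5 CPM at 72 h of CH against 34.8, 30.9 and 39.7 CPM at 0 h (log2 fold change 1.26, SE 0.17, adjusted p = 7.12e-07). It was at 21.9, 32.6 and 21.2 CPM at 72 h of AD, and CH was above AD by 1.74 (adjusted p = 1.04e-09). Slc35a5 was the other, at 152 ± 3.63 CPM against 66.3 ± 3.87 CPM (1.19, adjusted p = 1.77e-06). Slc35g1, placed here by its family number, was at 6.63, 2.69 and 4.42 CPM at 12 h of OS and at most 3 reads in a sample of 0 h, at least 10.1-fold higher (fitted log2 fold change 2.13, adjusted p = 4.95e-07). It was also called at 72 h of OS and AD and at 3 h of CH, with the call at 72 h of AD lost without replicate 1 of AD. Slc35e4 was higher at 3 h of OS than of CH (2.87 ± 0.882 against 0.653 ± 0.747 CPM, log2 fold change 1.30, adjusted p = 0.00371), a call lost by its size without replicate 1 of CH.

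The transporters of organic ions, peptides, nucleosides and choline held the broadest loss. Slc15a3, a proton-coupled transporter of histidine and small peptides in lysosomes that macrophages are known for, was the 1 member called in all 9 comparisons. It was at 10.2, 13.1 and 7.43 CPM at 0 h, at 2.66, 2.21 and 1.8 CPM at 3 h of OS, 2.32, 3.62 and 1.19 CPM at 3 h of AD and 2.4, 0.44 and 2.7 CPM at 3 h of CH. No sample of the 9 groups reached the lowest sample of 0 h. At 12 h of OS it had no reads, at least 22.4-fold lower (fitted log2 fold change -3.46, adjusted p = 2e-11), and at 72 h no sample of any lineage had more than 2 reads. The 3 haematopoietic markers found were near 0 in all groups, including 0 h, where they summed to at most 0.557 CPM. Other such markers looked for were not among the deposited genes, and the part of macrophages in this fall was not tested.

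Slc10a2, a sodium-dependent bile acid transporter, was at 2.15, 3.48 and 3.79 CPM at 0 h and had no reads in any sample at 72 h of the 3 lineages, at least 6.71-fold lower in OS, 5.88-fold in AD and 4.08-fold in CH (fitted log2 fold change -2.03 in each, adjusted p = 2.24e-08, 1.63e-08 and 1.31e-08). As with Slc16a3, the loss came later in OS. At 12 h the OS samples held 2.41, 1.64 and 1.52 CPM, while CH had no reads and AD 2, 0 and 0 reads, so that OS was at least 3.91-fold above CH and 3.35-fold above AD (fitted log2 fold changes 1.50 and 1.38, adjusted p = 2.94e-06 and 1.53e-05). At 3 h the OS samples held 2.98, 2.53 and 1.11 CPM and those of CH 0, 0 and 4 reads (fitted log2 fold change 1.44, adjusted p = 1.95e-05).

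Slc44a1, a choline transporter, fell first and rose later. It was at 7.88, 4.46 and 9.4 CPM at 0 h, and at 3 h at 0.157, 0.79 and 0.692 CPM in OS, 1.33, 2.36 and 1.78 CPM in AD and 1.5, 2.35 and 2.46 CPM in CH. All 3 h samples were below the lowest sample of 0 h. The log2 fold changes were -2.39, -1.51 and -1.37 (SE 0.35, adjusted p = 1.54e-06, 0.000777 and 0.00197). In OS it was still low at 12 h (1.21, 0.598 and 0.609 CPM), below AD by -2.52 (adjusted p = 1.21e-06) and below CH by -1.53 (adjusted p = 0.000791). By 72 h of AD it was at 18.2, 44.5 and 18.1 CPM, above all samples of 0 h (1.68, adjusted p = 0.000291), with replicate 2 as the highest. The difference between OS and AD at 72 h (-1.14, adjusted p = 0.0104) was lost without that replicate (adjusted p = 0.118) or without replicate 3 of OS (adjusted p = 0.058). From 12 to 72 h of OS the rise was 2.70 (adjusted p = 1.58e-07).

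Slc46a1, the proton-coupled folate transporter, was at 44.3, 53.6 and 39 CPM at 12 h of CH against 17.6, 21.5 and 17.7 CPM at 0 h (log2 fold change 1.22, SE 0.22, adjusted p = 4.27e-05), which was 0.99 with median-ratio scaling and just short of 1 with edgeR. It was lower at 12 h of OS than of CH (-1.38, adjusted p = 7.31e-06). Slc29a2, a nucleoside transporter, was called as higher at 12 and 72 h of OS and AD and at 3 h of CH, with group means from 1.59 to 2.51 CPM against 0.283 CPM at 0 h. Only the calls at 72 h of OS (1.42, SE 0.32, adjusted p = 0.000906) and 3 h of CH (1.24, adjusted p = 0.0023) held with each library left out, and those at 12 h of OS and AD and 72 h of AD did not, without replicate 1 of 0 h, without replicate 1 of AD, and without replicate 1 or 3 of 0 h or replicate 2 or 3 of AD respectively. Slc47a1, a proton-coupled exporter of organic cations, was at 1.57, 2.53 and 2.9 CPM at 3 h of OS against 0.859, 0.418 and 0.303 CPM (1.12, SE 0.25, adjusted p = 0.00051), just short of 1 without replicate 3 of OS. Slc47a2, an exporter of the same family, was at 0.904, 3.14 and 1.68 CPM at 12 h of OS, at least 4.01-fold above CH, where it had no reads. Its difference from AD (1.04, adjusted p = 0.00959) was lost without replicate 2 of OS (0.75) or replicate 2 or 3 of AD, with median-ratio scaling (0.96), with 6 samples (adjusted p = 0.0635), with edgeR (adjusted p = 0.0759) and with a pseudocount of 0.1 (adjusted p = 0.0548).

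Slc13a5 and Slc34a2, the 2 members placed in the phosphate, sulfate and carboxylate group, were both found at 72 h of CH and nearly nowhere else. Slc13a5, which takes up citrate with sodium, had 12.1, 13 and 13.1 CPM there (47 to 59 reads), at most 5 reads in a sample of 3 or 12 h of CH, and no reads in the other 21 samples. Slc34a2, the sodium-phosphate cotransporter NaPi-IIb, had 1.28, 2.65 and 3.11 CPM there and at most 5 reads elsewhere. The amino acid transporter Slc36a2, which carries small amino acids such as glycine and proline with protons, followed the same pattern with 13.1, 8.4 and 10.5 CPM, 0.578, 0.467 and 0.634 CPM at 12 h of CH and at most 1 read in a sample of 0 h, OS or AD. These levels are at least 28-fold (Slc13a5), 5.16-fold (Slc34a2) and 23.4-fold (Slc36a2) above 0 h, as a description, since the filter admitted all 3 through this group. CH at 72 h had the lowest read totals, so that the same number of reads gives a higher CPM there. Their promoters are shown because the genes share this pattern, with no E-box in any. They lie on GRCr8 at chr10:57388799-57389098 (Slc13a5), chr14:62143023-62143322 (Slc34a2) and chr10:39806724-39807023 (Slc36a2), all on the minus strand. None of the 6 motifs searched was found in the promoters of Slc34a2 and Slc36a2, while that of Slc13a5 held a GC box at 3 places and CCAAT at 1.

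Slc13a5: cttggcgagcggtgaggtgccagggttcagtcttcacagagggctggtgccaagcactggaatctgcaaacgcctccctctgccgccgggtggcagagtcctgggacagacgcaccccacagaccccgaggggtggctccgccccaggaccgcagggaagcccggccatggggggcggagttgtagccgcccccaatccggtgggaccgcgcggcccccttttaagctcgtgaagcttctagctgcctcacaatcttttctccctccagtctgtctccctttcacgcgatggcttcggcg

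Slc34a2: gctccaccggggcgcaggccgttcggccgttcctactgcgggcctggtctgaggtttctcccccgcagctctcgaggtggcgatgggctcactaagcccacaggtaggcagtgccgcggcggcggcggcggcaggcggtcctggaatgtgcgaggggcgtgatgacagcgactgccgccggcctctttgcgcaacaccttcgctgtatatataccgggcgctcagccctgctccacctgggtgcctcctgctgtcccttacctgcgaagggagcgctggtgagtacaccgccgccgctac

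Slc36a2: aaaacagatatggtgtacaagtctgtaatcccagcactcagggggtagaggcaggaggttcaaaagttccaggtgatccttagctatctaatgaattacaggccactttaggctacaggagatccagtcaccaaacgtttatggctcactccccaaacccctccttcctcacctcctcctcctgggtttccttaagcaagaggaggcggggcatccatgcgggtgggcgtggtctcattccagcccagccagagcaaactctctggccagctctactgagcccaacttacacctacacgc

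Among 12 genes for exchange of sodium, chloride, bicarbonate and protons, AD at 72 h had 3 called as lower and none as higher, beside 9.08% and 6.19% of all genes. The scaffold gene Slc9a3r1 is 1 of the 3. Slc12a2, the sodium-potassium-chloride cotransporter NKCC1, fell in AD from 338, 340 and 354 CPM at 0 h to 189, 139 and 141 CPM at 12 h and 116, 117 and 135 CPM at 72 h (log2 fold changes -1.15 and -1.49, SE 0.11, adjusted p = 8.94e-10 and 2.61e-12). No AD sample of these times reached the samples of 0 h. OS was above AD by 1.29 at 12 h (adjusted p = 1.03e-10), and CH above AD by 1.33 at 72 h (adjusted p = 1.32e-11), which was 0.83 after quantile normalization. Slc12a7, the potassium-chloride cotransporter KCC4, was at 3.03, 3.72 and 1.11 CPM at 72 h of AD against 9.17, 10 and 13.2 CPM (-1.77, SE 0.24, adjusted p = 6e-07). In CH it lay at 22.3, 16.8 and 18.7 CPM, above AD by 2.56 (adjusted p = 2.71e-10) and above OS, since OS was below CH by -1.55 (adjusted p = 4.34e-06).

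The scaffold gene Slc9a3r1, whose protein NHERF1 binds sodium-proton exchangers and other membrane proteins, fell in all lineages. It was at 369, 409 and 422 CPM at 0 h and at 70.3, 62.3 and 63.3 CPM in OS, 103, 97.5 and 76.3 CPM in AD and 158, 125 and 106 CPM in CH at 72 h. Each of these samples lay below the samples of 0 h. The means were 6.13-, 4.34- and 3.08-fold lower (log2 fold changes -2.60, -2.11 and -1.63, SE 0.19, adjusted p = 1.86e-12, 1.2e-10 and 1.88e-08). Slc9a3r2, whose protein NHERF2 is related, was at 6.14, 7.78 and 4.3 CPM at 3 h of CH against 1.43, 2.93 and 1.21 CPM (1.33, SE 0.35, adjusted p = 0.00248) and above AD by 1.69 at that time (adjusted p = 0.000471). Slc26a4, which codes for the anion exchanger pendrin, was at 0.731, 2.58 and 1.85 CPM at 12 h of AD and at most 2 reads in a sample of 0 h (at least 3.78-fold, fitted log2 fold change 1.07, adjusted p = 0.000628), a call lost by its size without replicate 2 of AD and with median-ratio scaling. Slc24a1 and Slc8a3, which exchange calcium for sodium, were not called against 0 h in any group. With edgeR, Slc24a1 was called as lower at 12 h of OS, and Slc8a3 at 12 h of OS and 72 h of CH. Slc24a1 was lower at 3 h of OS (-1.34, adjusted p = 0.00766) and of CH (-1.25, adjusted p = 0.0104) than of AD, calls lost without replicate 1 of OS and replicate 3 of CH in turn and with a pseudocount of 0.1. CH was below AD in Slc8a3 at 72 h by -1.32, with no reads in CH. Slc8a3 reached 1 CPM only in samples of 12 and 72 h of AD. This difference thus follows in large part from the filter, and no p is given.

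Between lineages at the same time, the fewest members were called at 3 h. OS and AD then differed in 7 members (2 of them higher in OS), beside 7.66% of all genes (2.77% higher, 4.88% lower). OS and CH differed in 7 (3 of them higher in OS), beside 7.31% (2.25% higher, 5.07% lower), and CH and AD in 9 (3 of them higher in CH), beside 9.35% (5.13% higher, 4.22% lower). After 12 h, 19 members separated OS from AD (14 of them higher in OS), beside 13.2% of all genes (6.99% higher, 6.17% lower). The same time gave 15 for OS and CH (8 of them higher in OS), beside 16% (8.87% higher, 7.08% lower), and 11 for CH and AD (9 of them higher in CH), beside 13.6% (7.04% higher, 6.56% lower). After 72 h, 14 members separated OS from AD (8 of them higher in OS), beside 13.7% of all genes (9.21% higher, 4.52% lower). That time also gave 16 for OS and CH (6 of them higher in OS), beside 19.6% (8.55% higher, 11.1% lower), and 34 for CH and AD (22 of them higher in CH), beside 25.5% (16.5% higher, 9.01% lower). In the same order these are 8.05%, 8.05% and 10.3% of the 87 members for the 3 h pairs, 21.8%, 17.2% and 12.6% for those of 12 h, and 16.1%, 18.4% and 39.1% for those of 72 h. In each of CH against AD at 12 h, OS against AD at 72 h and CH against AD at 72 h, 1 called member had samples that overlapped between the groups, which was not counted over all called genes. CH against AD at 72 h held the most calls of all 18 comparisons, and 28 without replicate 3 of AD, a fit for which the share of all genes was not counted. Without the 5 members that passed through 1 group it held 31 of 82 (37.8%), against 24.9% of the genes with 1 CPM in samples of more than 1 group. On the same basis OS and CH differed in 13 members at 72 h (6 higher and 7 lower in OS, 15.9% against 19%) and in 14 at 12 h (17.1% against 16.2%), and CH and AD in 10 at 12 h (12.2% against 13.9%). The split moved by over 10 percentage points with another scaling in 4 of the 9 and with edgeR alone in the others named here. With edgeR it was 3 higher and 4 lower for OS against AD at 3 h, 12 and 10 for OS against AD at 12 h and 8 and 13 for OS against CH at 12 h, and with quantile normalization 5 and 3 for OS against CH at 3 h. For OS against AD at 72 h it was 2 and 9 with median-ratio scaling, 4 and 6 with quantile normalization and 4 and 9 with edgeR. For OS against CH at 72 h it was 5 and 15 with median-ratio scaling, and for CH against AD at 72 h it was 18 and 16, 14 and 14, and 20 and 18 with the 3 settings in that order.

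**Figure D5:**
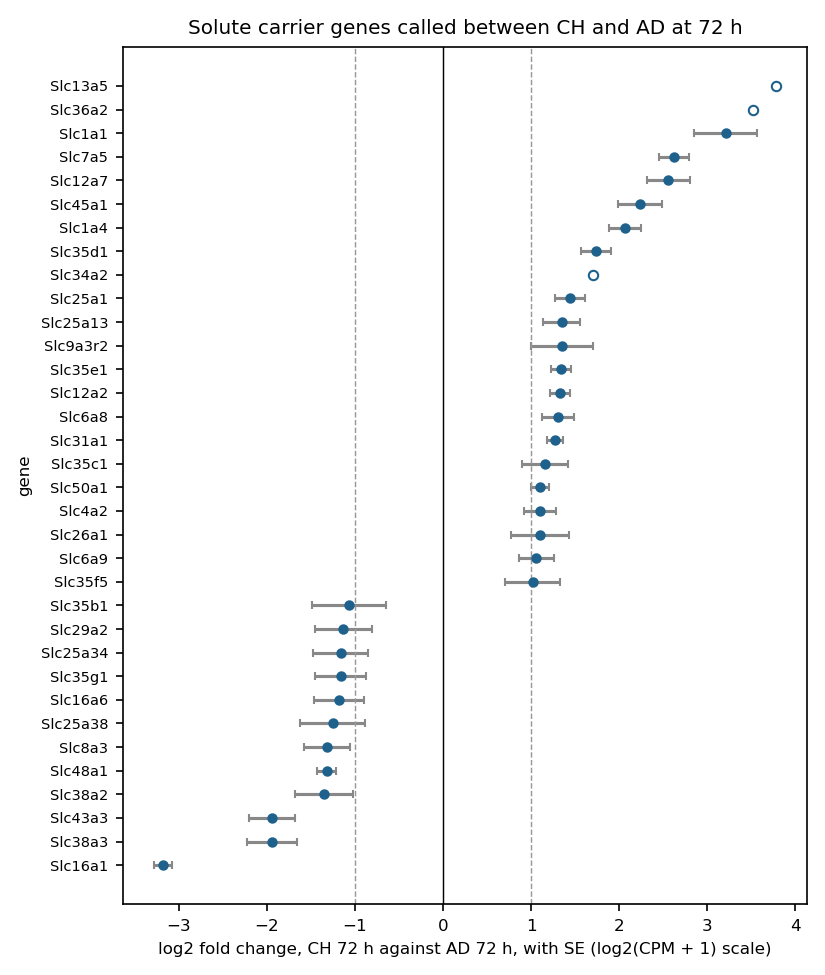
Log2 fold change with its SE, on the log2(CPM + 1) scale, of the 34 solute carrier genes called between CH and AD at 72 h, with dashed lines at -1 and 1. Open circles without SE mark Slc13a5, Slc34a2 and Slc36a2, whose place follows from the filter. Of the filled circles, Slc1a1, Slc7a5 and Slc12a7 lie farthest to the right (higher in CH) and Slc16a1 farthest to the left, at -3.18.

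Between successive times of a lineage more calls came after 12 h, in the members as in all genes. The step from 12 to 72 h is far longer than that from 3 to 12 h, so these counts give no rate. In OS 4 members were called from 3 to 12 h (7.82% of all genes) and 21 from 12 to 72 h (23.2%), in AD 10 (12.9%) and 16 (16%), and in CH 6 (7.68%) and 15 (13.2%). Of the 82 members that passed through more than 1 group, 4 (4.88%, against 7.67% of such genes) and 12 (14.6%, against 12.6%) were called in CH. Of the 10 in AD from 3 to 12 h, 9 were falls, beside 5.13% of all genes called as higher and 7.82% as lower, and the largest was that of Slc7a5, by a log2 fold change of -3.46 (adjusted p = 2.44e-16).

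By role, the 34 members called between CH and AD at 72 h included 9 of the 15 amino acid transporters (6 higher, among them Slc36a2, and 3 lower in CH), 6 of the 10 nucleotide sugar transporters (4 higher and 2 lower) and 6 of the 12 genes of ion exchange (5 higher and 1 lower), beside 25.5% of all genes (16.5% higher, 9.01% lower). Without replicate 3 of AD, which stood apart, 4 of the nucleotide sugar transporters (3 higher and 1 lower), 5 of the genes of ion exchange (3 higher and 2 lower) and 7 of the amino acid transporters (5 higher and 2 lower) were called. After quantile normalization 3 of the nucleotide sugar transporters (1 higher and 2 lower), 4 of the genes of ion exchange (3 higher and 1 lower) and 9 of the amino acid transporters (5 higher and 4 lower) were called. For neither setting were the shares of all genes counted. Without Slc36a2, which passed through 72 h of CH alone, 8 of 14 amino acid transporters were called (5 higher and 3 lower), beside 24.9% of the genes that reached 1 CPM in more than 1 group. Slc31a1, the high-affinity copper importer CTR1, was among the 22 that were higher, at 353 ± 13.7 CPM in CH against 146 ± 14.7 CPM in AD (log2 fold change 1.27, SE 0.09, adjusted p = 5.79e-13), and 0.78 after quantile normalization. Slc35e1 was another, at 183 ± 9.55 against 71.9 ± 4.78 CPM (1.34, SE 0.11, adjusted p = 5.93e-12), and 0.94 after quantile normalization. Neither was called against 0 h in any group. Of the 34, the calls of Slc16a6, Slc25a34, Slc26a1, Slc35b1, Slc35f5, Slc38a2, Slc4a2, Slc6a9 and Slc9a3r2 were lost without replicate 3 of AD.

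Genes of transport that bear other names were read from a further list. Of 32 carriers without an Slc symbol, 14 passed the filter, and between 2 and 4 of them were called in each comparison with 0 h, with 0 or 1 higher, beside 12.5% to 21.8% of all genes. Ankh, which exports ATP and so supplies pyrophosphate, was at 573 ± 48.7 CPM at 0 h, 1191 ± 68.4 CPM at 72 h of CH (log2 fold change 1.06) and 158 ± 11.8 CPM at 72 h of AD (-1.85). Slco2a1, a prostaglandin transporter, was at 7.65 ± 2.09 CPM at 0 h and 0.147 ± 0.255 CPM at 72 h of CH (-2.91).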

How the data were processed

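RNA of 30 samples in 10 groups of 3 was measured by RNA sequencing. The submitters' processing notes name Trimmomatic, HISAT2 and StringTie, and the build is not given in the sources used here. The labels describe removal of ribosomal RNA and the paper mRNA libraries. The authors named their deposited tables FPKM, yet the values are CPM, since within each sample 100% of them were whole multiples of 1 step (tolerance 0.02 reads), which gave the reads and their totals. CPM holds no gene length, so levels were not compared between genes. Rows of 1 name were summed (729 of 9999 names, 5 of them members). Names were matched to RefSeq, 85 members by symbol and 2 by synonym.

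The test was that of limma (version 3.58.1, R 4.3.3, with eBayes and a mean-variance trend) on log2(CPM + 1), for genes at 1 CPM or more in 3 samples or more, in 1 model of 30 samples with 10 groups and no covariates, and p-values were adjusted by Benjamini-Hochberg over 4363 genes. Fold changes on this scale understate the change of low genes. A level with at most 3 reads in every sample of a group was set to the floor of 3 reads, the highest of the group, for folds given as "at least". Other folds are ratios of mean CPM. The script was tested on simulated data. All 30 pairs of replicates differed beyond counting noise.

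The members and lists were chosen with earlier results of these data known, and a further list of transport genes is not reported here. Roles were assigned by family number. Named were the 4 largest rises and falls against 0 h and the 3 largest between lineages, among called genes whose samples did not overlap, genes called at all times of a lineage or in all lineages at a time, and 15 well-known carriers of 33 listed that passed. Genes outside this rule (Slc31a1, Slc35a5, Slc35d1, Slc35e1, Slc37a1, Slc50a1, Slc16a6, Slc34a2, Slc5a7, Slc30a3, Slc1a2, Slc46a1) were chosen after their values were seen. Alternatives were a pseudocount of 0.1, no filter, median-ratio scaling, quantile normalization, a fit on 6 samples, the replicate number as a block, samples left out 1 by 1, and edgeR 4.0.16 (quasi-likelihood) on the recovered reads. Tables and figures used Python 3.11.15, pandas 2.3.3 and matplotlib 3.10.9.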

Additional observations from a re-analysis of the deposited data

Results flagged for a closer look

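Slc1a1 was lower than at 0 h in every sample at 72 h of OS and higher in every sample at 72 h of CH, and the difference between OS and CH was tested directly, at a log2 fold change of -5.79. A few Slc names left out by the filter had more reads in every sample of 1 group than in any sample of 0 h, each given as the mean CPM of that group. Slc27a6, a fatty acid transporter, was at 5.36 CPM at 72 h of AD (5 to 49 reads), had no reads at 0 h and was not tested. Slc12a3 (1.53 CPM), Slc25a47 (0.666 CPM) and Slc4a11 (0.645 CPM) stood out in this way at 3 h of AD, and Slc45a3 (0.859 CPM) at 3 h of CH.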

How the results depend on the processing

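The number of members called stayed within 1.5 times the reported one under every alternative run, except at 3 h for OS against CH, where 7 became 11 with a pseudocount of 0.1 and 12 with edgeR, and for CH against AD, where 9 became 14 with the pseudocount of 0.1. With each replicate left out in turn the counts against 0 h lay between 12 and 14, 14 and 16, and 15 and 16 at 3, 12 and 72 h of OS, between 14 and 18, 11 and 16, and 16 and 23 in AD, and between 14 and 17, 16 and 17, and 21 and 25 in CH. For OS against AD, OS against CH and CH against AD they lay between 6 and 10, 7 and 8, and 8 and 11 at 3 h, between 15 and 23, 15 and 18, and 10 and 15 at 12 h, and between 12 and 17, 16 and 19, and 28 and 37 at 72 h. Of 274 calls of members in these 18 comparisons, 34 were lost after median-ratio scaling, 43 after quantile normalization, 26 with edgeR, 17 with 6 samples, 6 without the filter and 4 with the pseudocount of 0.1, and 70 without some single library. None of the 274 changed its sign. Shares of all genes called were counted in the reported fit only, not under the alternatives. Same-numbered samples did not deviate together (correlations from -0.17 to 0.10), so no pairing by number was seen. Deviations from means of 3 samples cannot exclude such pairing. With the replicate number as a block 0 of the 274 calls were lost. Depth limits the low members: 52 of the 87 had a mean under 10 CPM, and the floor was 0.769 CPM in the shallowest library.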
